A study of Homo sapiens with 30 samples.

Results

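The data described here are the androgen response that MR49F prostate cancer cells retained while BET bromodomain proteins were inhibited with JQ-1. MR49F is a prostate cancer line that is resistant to the antiandrogen enzalutamide. The members are 6 RNA-seq libraries of 30 in the series, chosen by their labels: 3 of cells given 500 nM JQ-1 with 1 nM dihydrotestosterone (DHT-JQ1) and 3 of cells given 500 nM JQ-1 without DHT (JQ1). A further 6 libraries of the same line, 3 with 1 nM DHT and 3 with the DMSO and ethanol vehicle, were used to ask how the response differed when JQ-1 was absent. All 4 groups were kept for 72 h in charcoal-stripped serum, which is depleted of androgens, and were then treated for 24 h. Enzalutamide was withheld from every one of these 4 groups during the experiment. Another 3 libraries of this line, from cells given 10 μM enzalutamide with 500 nM JQ-1 in the same serum, are set beside them near the end. A single line of resistant cells was used, so other lines are not covered.

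Androgens such as DHT change the transcription of many genes of prostate cells, among them secreted proteases and enzymes of lipid synthesis. BET proteins bind acetylated histones and help release paused RNA polymerase. JQ-1 displaces them from chromatin, and in prostate cancer cells it is known to lower the transcription of many androgen-induced genes. The comparison of DHT-JQ1 with JQ1 therefore asks what DHT still changed with this inhibitor present in both arms.

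Expression was measured in 2 ways for each gene. Read counts on genes were tested with edgeR, and FPKM (fragments of a transcript, corrected for its length and for library depth) were tested with limma on log2(FPKM + 1). A gene was called only where both tests passed a Benjamini-Hochberg adjusted p-value of 0.05 with the same sign, and "rose" and "fell" are used for such genes only. Log2 fold changes are from the FPKM fit unless stated, and with the added 1 they understate the change of genes with few FPKM. Between 1486753 and 1813262 reads per library lay on genes in the 6 libraries, which was 6.82% to 7.66% of the reads on genes, without a feature or ambiguous. The counts are thus shallow, and genes with few reads could change by small amounts without being detected. Pairs of replicate libraries had correlations of log2(FPKM + 1) from 0.992 to 0.994, and each pair differed by more than counting noise. Each replicate combined 2 wells of the same line, and the p-values set the difference between groups against the spread between replicates.

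The cells carried the markers of luminal prostate epithelium, of which 9 of 9 were at 1 FPKM or more in every JQ1 library and 8 of 9 in every DHT-JQ1 library. The exception was ACPP, which encodes prostatic acid phosphatase and lay at 0.79 to 0.91 FPKM with DHT-JQ1. No basal or endothelial marker reached 1 FPKM in every library of any group. Summed basal markers were at 0.00690 to 0.0755 FPKM with JQ1 and 0.0240 to 0.0762 FPKM with DHT-JQ1. Of the fibroblast markers only COL1A1 reached 1 FPKM in all JQ1 libraries, and the summed level was 1.47 to 1.48 FPKM with JQ1 and 0.719 to 0.854 FPKM with DHT-JQ1. The summed neuroendocrine markers, mostly ENO2 and SYP, were at 35.0 to 35.4 FPKM with JQ1 and 23.4 to 24.6 FPKM with DHT-JQ1. CD68 was the only immune marker at 1 FPKM in all libraries. In these bulk samples fewer cells of a type and less RNA per cell cannot be told apart.

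DHT changed the expression of 2078 of 10278 tested genes in the presence of JQ-1 (20.2%), of which 1111 rose (10.8%) and 967 fell (9.41%). The change was at least 2-fold for 297 of them, and the median absolute log2 fold change of the called genes was 0.45. By counts alone 2400 genes passed (1334 higher and 1066 lower), and by FPKM alone 6238 passed (2012 higher and 4226 lower). The share of higher genes among those called was therefore 55.6% by counts, 32.3% by FPKM and 53.5% by both. The median log2 change over all tested genes was -0.07 in the FPKM fit and -0.0025 in the count fit. The 3 DHT-JQ1 libraries did not overlap with the 3 JQ1 libraries, in FPKM and in CPM, for 1976 of the 2078 called genes and for 28.9% of all tested genes.

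The secreted serine proteases of the kallikrein family were among the genes that kept the response. KLK3, which encodes prostate-specific antigen and lies at chr19:51358171-51364020 (GRCh37), was at 6.97, 7.61 and 6.45 FPKM in the 3 JQ1 libraries and at 158, 164 and 161 FPKM in the 3 DHT-JQ1 libraries. The groups were far apart and the mean was 23.0-fold higher with DHT (log2 fold change 4.34, SE 0.05, adjusted p = 5.62e-10 by limma and 5.9e-38 by edgeR). In the cells without JQ-1, KLK3 was at 276, 282 and 289 FPKM with vehicle and at 1212, 1235 and 1327 FPKM with DHT. The fold was thus smaller without JQ-1 (4.45-fold), while the gain was larger on the linear scale, 975 FPKM against 154 FPKM under JQ-1. Each DHT-JQ1 library still held less KLK3 than each vehicle library.

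KLK2, a related protease whose gene lies next to KLK3, was at 1.45, 1.01 and 1.43 FPKM with JQ1 and rose to 11.2, 11.3 and 12.2 FPKM with DHT-JQ1. Without JQ-1 its levels were higher, at 28.9 to 30.1 FPKM with vehicle and 213 to 230 FPKM with DHT. KLK4, the third family member that was tested, was at 7.49, 6.54 and 7.83 FPKM with JQ1 and at 85.4, 90.8 and 98.9 FPKM with DHT-JQ1. KLK4 reached a higher level than with DHT alone, where it was at 74.4, 74.7 and 81.0 FPKM. The 5 other members of the list were not tested: KLK15 lay at 0.176 to 0.423 FPKM with JQ1 and 1.06 to 1.44 FPKM with DHT-JQ1, KLKP1 stayed below 1 FPKM, and KLK1, KLK10 and KLK11 were at or near 0.

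**Figure D1:**
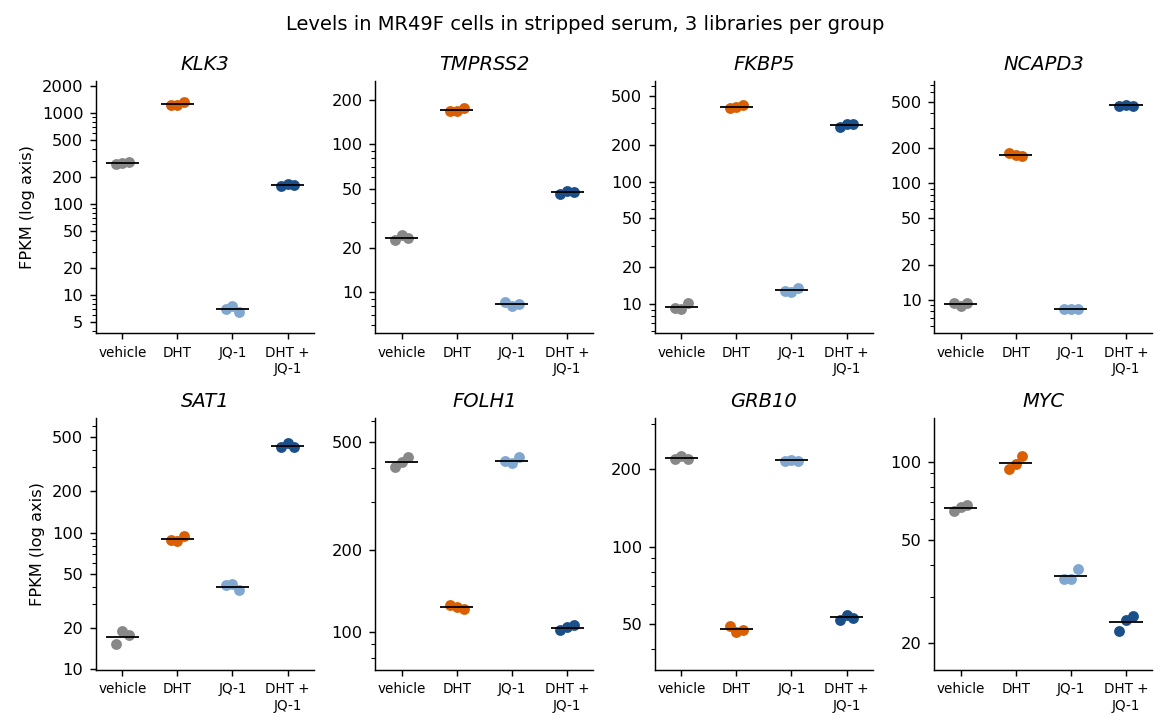
FPKM of 8 genes in each library (points) and the mean of the 3 libraries per group (lines), with FPKM on a log axis that differs between panels. DHT raised KLK3, TMPRSS2, FKBP5, NCAPD3 and SAT1 and lowered FOLH1 and GRB10 with and without JQ-1, while MYC rose without JQ-1 and fell under it.

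The largest rise in log2(FPKM + 1) was that of NCAPD3, which encodes a subunit of the condensin II complex that compacts chromosomes. It was at 8.39, 8.40 and 8.27 FPKM with JQ1 and at 463, 473 and 458 FPKM with DHT-JQ1, a 55.6-fold difference (log2 fold change 5.64, SE 0.03, adjusted p = 5.72e-12 by limma and 7.46e-55 by edgeR). With DHT alone it reached 173 to 181 FPKM, so the DHT-JQ1 libraries were the highest of the 4 groups. Exons of NCAPD3 (chr11:134020008-134095398, minus strand) overlap over 1889 bases with JAM3 on the other strand, whose FPKM went from 1.79 to 12.8 between the groups. C1orf116, a gene known to be androgen-induced, showed the same order of groups, from 2.07 to 2.15 FPKM with JQ1 to 147 to 150 FPKM with DHT-JQ1 (70.2-fold), compared with 66.8 to 67.7 FPKM with DHT alone. Without the added 1, and by counts, its rise was larger than that of NCAPD3.

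Other genes of this group encode regulators of differentiation, signaling and transport. FKBP5, a co-chaperone of steroid receptors, was at 12.8, 12.5 and 13.5 FPKM with JQ1 and at 281, 294 and 296 FPKM with DHT-JQ1 (22.4-fold, compared with 43.0-fold without JQ-1). SPDEF, an ETS factor of luminal epithelium, went from 3.76, 3.86 and 3.87 to 53.6, 59.6 and 56.2 FPKM. Without JQ-1 it was at 31.6 to 33.3 FPKM with vehicle and 120 to 129 FPKM with DHT.

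SLC45A3, a prostate-specific transporter gene, was at 9.77 to 11.8 FPKM with JQ1 and 237 to 242 FPKM with DHT-JQ1. SGK1, a kinase induced by steroid hormones, was at 0.454, 0.364 and 0.592 FPKM with JQ1 and at 18, 17.8 and 18.1 FPKM with DHT-JQ1, close to the 18.2 to 18.8 FPKM reached with DHT alone. ZNF812, a zinc finger gene, was also among the 10 largest rises, from 0.12 to 0.259 FPKM with JQ1 to 12.5 to 13.9 FPKM with DHT-JQ1. It had no count in the JQ1 libraries, so its fold is poorly determined.

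Promoters were taken from the RefSeq table of GRCh38.p14 as 250 bases before to 50 bases after the start. For 39 of 65 named genes the promoter was searched on both strands for the androgen response half-site AGAACA. The other named genes were not searched, so whether they hold the half-site is not known here. Among the 39, the promoters of KLK3, FKBP5 and PLD1 held it. These are given 5′ to 3′ with the half-site in capitals so that its place can be seen beside the expression values. KLK3 and FKBP5 rose with DHT under JQ-1 and PLD1 fell. The windows are chr19:50854665-50854964 (plus strand), chr6:35728534-35728833 (minus strand) and chr3:171810434-171810733 (minus strand). The half-site begins 170 bases before the start of KLK3, at the first base of FKBP5 and 196 bases before the start of PLD1.
KLK3: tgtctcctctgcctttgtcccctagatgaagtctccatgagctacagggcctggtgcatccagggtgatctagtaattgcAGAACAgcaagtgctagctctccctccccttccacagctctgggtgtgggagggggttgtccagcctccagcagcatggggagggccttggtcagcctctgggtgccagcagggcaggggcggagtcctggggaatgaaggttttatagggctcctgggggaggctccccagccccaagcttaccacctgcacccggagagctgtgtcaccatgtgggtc
FKBP5: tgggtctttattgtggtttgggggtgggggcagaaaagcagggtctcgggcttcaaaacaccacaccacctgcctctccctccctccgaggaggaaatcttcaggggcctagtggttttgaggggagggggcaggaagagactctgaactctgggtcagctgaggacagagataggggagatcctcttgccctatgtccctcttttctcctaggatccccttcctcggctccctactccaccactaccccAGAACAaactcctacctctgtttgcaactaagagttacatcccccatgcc
PLD1: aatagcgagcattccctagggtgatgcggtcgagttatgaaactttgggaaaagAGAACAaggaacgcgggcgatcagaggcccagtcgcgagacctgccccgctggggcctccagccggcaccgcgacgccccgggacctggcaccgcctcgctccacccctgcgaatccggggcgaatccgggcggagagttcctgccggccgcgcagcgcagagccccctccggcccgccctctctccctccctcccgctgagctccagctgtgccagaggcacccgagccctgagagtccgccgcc
Over the whole table, 14.9% of 27305 promoters held the half-site on either strand. It was held by 7.13% of 842 promoters of genes that rose, by 5.67% of 705 of genes that fell and by 8.13% of the 7641 promoters of tested genes. The full palindrome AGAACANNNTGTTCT was in 1 promoter of the table and in none of the tested genes.

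Genes lowered by DHT under JQ-1 included a receptor adaptor, a transcriptional corepressor and a cell surface antigen. FOLH1, which encodes prostate-specific membrane antigen (chr11:49166644-49230190), was at 426, 417 and 439 FPKM with JQ1 and at 101, 104 and 106 FPKM with DHT-JQ1, a 4.13-fold decrease (log2 fold change -2.03, SE 0.03, adjusted p = 2.26e-09 by limma and 7.66e-34 by edgeR). Without JQ-1 it was at 405 to 439 FPKM with vehicle and 122 to 126 FPKM with DHT, above the DHT-JQ1 libraries, and the interaction was called (-0.27, SE 0.05). In the count fit this interaction was lost when any of 5 libraries was left out and with DESeq2. GRB10, an adaptor of insulin and growth factor receptors, was at 216, 217 and 216 FPKM with JQ1 and at 51.9, 54.3 and 52.9 FPKM with DHT-JQ1. TLE3, a Groucho family corepressor, was at 48.3 to 51.2 FPKM with JQ1 and 10.9 to 12.2 FPKM with DHT-JQ1. For GRB10 and TLE3 the interaction with JQ-1 was 0.18 and 0.03 on the log2 scale and was not called.

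PITX1, a homeobox gene, had the largest decrease in log2(FPKM + 1), from 52.0, 59.1 and 56.3 FPKM to 10.4, 9.84 and 9.82 FPKM (5.58-fold). The order depends on the added 1: by FPKM without it PLD1 (28.9-fold) and LRRN1 (5.84-fold) fell further. ST3GAL1, a sialyltransferase gene, went from 137 to 141 FPKM down to 37 to 38.1 FPKM, and BMF, a BH3-only gene of apoptosis, from 10.2 to 10.8 FPKM down to 2.06 to 2.24 FPKM. PLD1, which encodes phospholipase D1, fell from 3.83 to 3.96 FPKM to 0.0862 to 0.160 FPKM, with 0.667 reads per DHT-JQ1 library on average. BROX fell from 82.8 to 87.9 FPKM to 19.6 to 20.4 FPKM, and 185 exonic bases overlap with AIDA on the other strand, which itself went from 216 to 63.1 FPKM.

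CAMK2N1, an inhibitor of calcium/calmodulin-dependent kinase II, was lowest in the DHT-JQ1 libraries. It was at 21.1, 21.2 and 22.2 FPKM with JQ1 and at 4.22, 4.14 and 4.60 FPKM with DHT-JQ1, compared with 168 to 184 FPKM with vehicle and 16.8 to 17.3 FPKM with DHT. LRRN1 went from 9.53 to 10.1 FPKM to 1.56 to 1.76 FPKM under JQ-1, and from 33.4 to 35.4 FPKM to 1.07 to 1.27 FPKM without it.

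**Figure D2:**
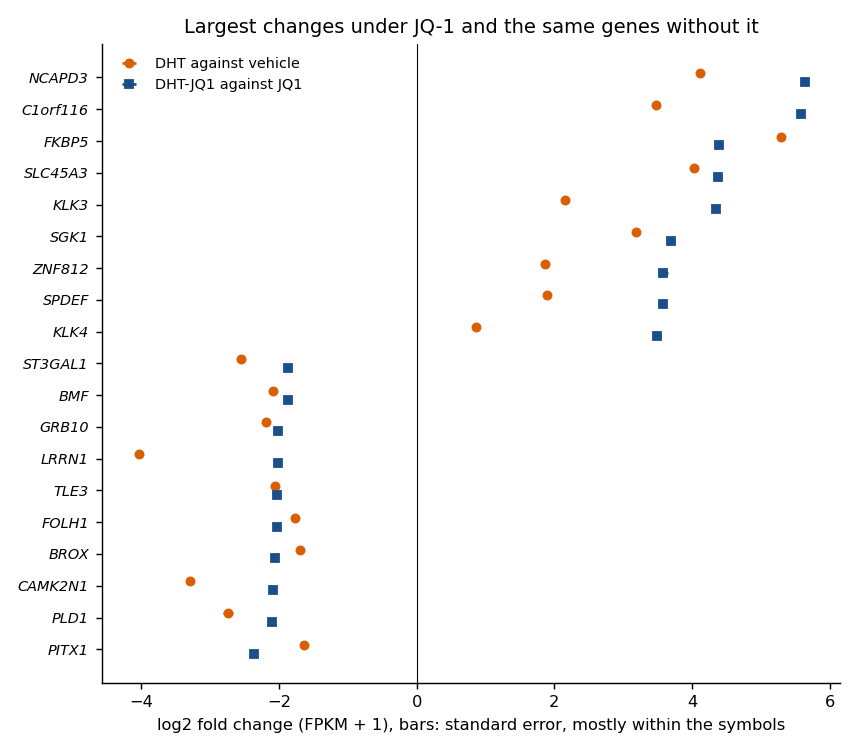
Log2 fold changes for DHT in the FPKM fit, with standard errors, for 9 of the 10 rising genes and the 10 falling genes with the largest change under JQ-1 (squares), and for the same genes without JQ-1 (circles). The genes were chosen by their change under JQ-1; On this scale NCAPD3 leads the rising genes at 5.64 and PITX1 the falling genes at -2.37, an order that changes without the added 1.

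The response under JQ-1 was then set beside that without it, and the 2 comparisons share no library. Without JQ-1, DHT changed 3696 of 10446 tested genes (35.4%), with 1916 rising (18.3%) and 1780 falling (17%). Of 9841 genes tested in both comparisons, 1803 rose without JQ-1, 1090 rose under JQ-1 and 727 rose in both. The shared genes were 40.3% of those that rose without JQ-1 and 66.7% of those that rose under it, whereas 11.1% of all genes tested in both rose under JQ-1. For falling genes the counts were 1642, 925 and 603, and the shared genes were 36.7% and 65.2% of each list. Of 281 genes that rose at least 2-fold without JQ-1, 240 rose under JQ-1 and 152 did so at least 2-fold. Of 316 that fell at least 2-fold, 213 fell under JQ-1 and 57 at least 2-fold.

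Genes that rose with DHT alone had a median log2 fold change of 0.51 there and 0.17 under JQ-1, and genes that fell had medians of -0.63 and -0.30. The first value of each pair is that of the comparison that selected the genes, which raises its size. Across the 3445 genes called without JQ-1, the slope of the change under JQ-1 on the change without it was 0.57 in the FPKM fit and 0.54 in the count fit. Across the 2015 genes called under JQ-1 it was 0.71 and 0.72. These are descriptions across genes, which are not independent replicates.

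**Figure D3:**
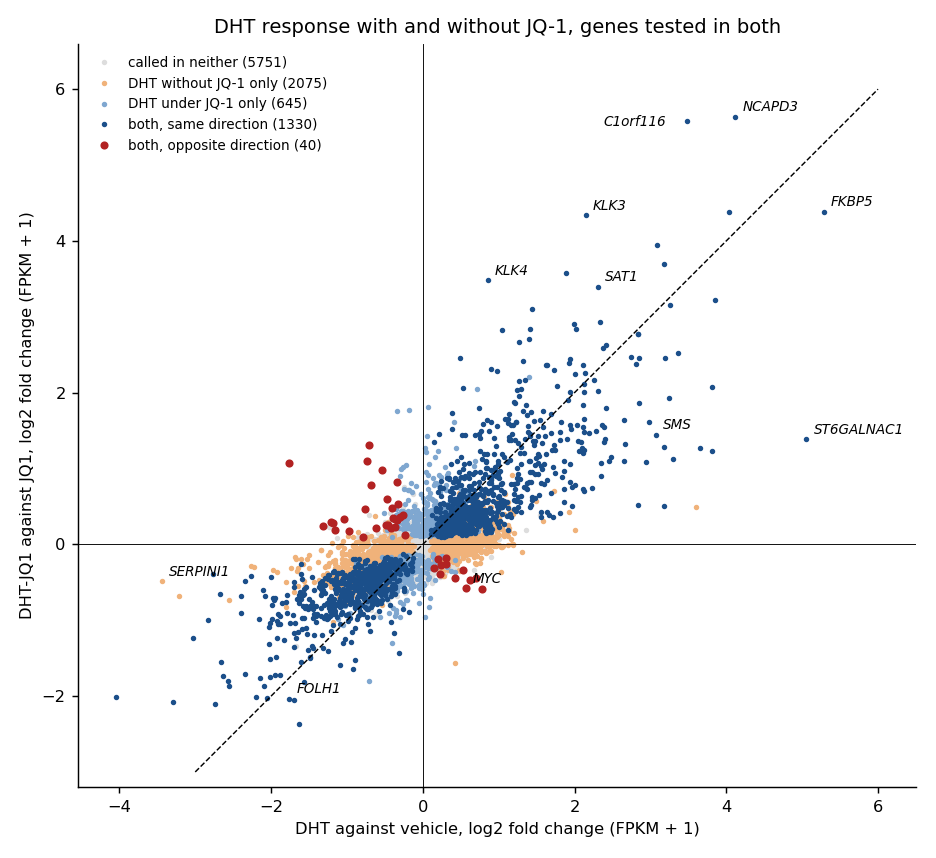
Log2 fold change for DHT without JQ-1 (x axis) and under JQ-1 (y axis) for 9841 genes tested in both comparisons, colored by where a gene was called; on the dashed line the 2 changes are equal. Of these genes 1330 were called in both comparisons with the same direction, 2075 only without JQ-1, 645 only under JQ-1 and 40 in opposite directions.

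Whether the response differed was tested with the interaction of DHT and JQ-1 in the 12 libraries, which compares fold changes rather than differences in FPKM. It was called for 1264 of 10970 tested genes (11.5%), with 574 more positive (5.23%) and 690 more negative under JQ-1 (6.29%). Among the 1803 genes that rose with DHT alone, the response was weaker under JQ-1 for 581 and stronger for 66. Among the 1642 that fell, it was weaker for 376 and stronger for 11. The DHT and vehicle libraries that chose these genes also enter the interaction, which favors weaker over stronger calls among them. No interaction was called for 511 of the 727 genes that rose in both comparisons and 483 of the 603 that fell in both, which does not show that the responses were equal.

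The 5 most negative interactions were those of ST6GALNAC1, CHRNA2, NPPC, SPOCK1 and CRISP3. ST6GALNAC1, a sialyltransferase gene, was at 40.9, 43.0 and 44.8 FPKM with DHT but at 1.49, 1.84 and 2.01 FPKM with DHT-JQ1. It was at 0.307 to 0.328 FPKM with vehicle and 0.0371 to 0.0950 FPKM with JQ1, and it rose under JQ-1 (log2 fold change 1.38). For ST6GALNAC1 the interaction was -3.67 (SE 0.09, adjusted p = 1.01e-10 by limma and 0.00456 by edgeR). Its count interaction was no longer called without JQ1 replicate 1, where it was -3.72. CHRNA2, a nicotinic receptor subunit gene, reached 14.4 to 15.2 FPKM with DHT and 0.416 to 0.568 FPKM with DHT-JQ1. With JQ1 it was at 0.0192 to 0.0230 FPKM. NPPC, which encodes C-type natriuretic peptide, reached 45.9 to 50.9 FPKM with DHT and 1.20 to 1.38 FPKM with DHT-JQ1. SPOCK1, a proteoglycan gene, reached 19.6 to 20.4 FPKM with DHT and 1.25 to 1.43 FPKM with DHT-JQ1.

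CHRNA2, NPPC and SPOCK1 were not called under JQ-1: CHRNA2 and NPPC had too few reads to be tested in both measures, and SPOCK1 had adjusted p = 0.0833 by edgeR. Without JQ1 replicate 3, SPOCK1 passed in the count fit with a log2 fold change of 1.34. CRISP3, a secreted protein gene, went from 10.2 to 10.4 FPKM with JQ1 to 14.7 to 15.4 FPKM with DHT-JQ1, against 107 to 109 FPKM with DHT alone. This small rise was called, but was lost in the count fit when DHT-JQ1 replicate 3 or JQ1 replicate 3 was left out (log2 fold changes of 0.51 and 0.55) and with DESeq2.

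At the other end, KLK4 and C1orf116 had a larger fold under JQ-1 (interactions 2.63 and 2.11). SERPINI1, PKIB, GOLIM4 and C11orf92, all of which fell with DHT alone, also had positive interactions. SERPINI1, a serpin gene, fell from 122 to 126 FPKM with vehicle to 9.97 to 11.6 FPKM with DHT. Under JQ-1 it was at 33.7 to 34.1 FPKM and at 22.9 to 24.7 FPKM with DHT-JQ1, which was not called (adjusted p = 0.0952 by edgeR). PKIB, an inhibitor of protein kinase A, was at 6.47 to 7.04 FPKM with JQ1 and 3.68 to 3.92 FPKM with DHT-JQ1 and was also not called. GOLIM4, a Golgi membrane protein gene, fell from 33.7 to 37.2 FPKM to 25.6 to 28.0 FPKM, and this call was lost in the count fit without DHT-JQ1 replicate 1 (log2 fold change -0.19). C11orf92 changed direction, from 0.426 to 0.552 FPKM with JQ1 to 2.01 to 2.34 FPKM with DHT-JQ1, whereas DHT alone lowered it from 39.5 to 40.1 FPKM to 10.8 to 11.4 FPKM.

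DHT changed 40 genes in opposite directions in the 2 comparisons, MYC among them. MYC, an oncogene that BET inhibitors are known to lower, was at 35.3, 35.3 and 38.7 FPKM with JQ1 and fell to 22.2, 24.7 and 25.5 FPKM with DHT-JQ1, whereas it rose from 64.4 to 67.9 FPKM to 93.9 to 105 FPKM without JQ-1 (interaction -1.14, SE 0.08). Of the 40 genes, from 9841 tested in both comparisons, 28 fell with DHT alone and rose under JQ-1 and 12 did the reverse. The interaction was called for 40 of 40. It compares the same libraries whose opposite calls chose these genes, so it adds no separate support.

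Classical androgen-induced genes held their direction under JQ-1. Of 35 genes in the list, 28 were tested, 28 rose and none fell, against 10.8% rising and 9.41% falling over all tested genes. Of the 28, 27 were at 1 FPKM or more in all 6 libraries. The median log2 fold change was 2.23, compared with -0.07 over all tested genes. Without JQ-1, 34 of the 35 rose, against 18.3% of all tested genes. The 27 genes that rose in both included TMPRSS2, a membrane serine protease, which went from 8.55, 8.02 and 8.26 FPKM to 46.3, 48.0 and 47.8 FPKM under JQ-1 (5.72-fold, against 7.30-fold without it). Its exons overlap over 562 bases with MX1 on the other strand, which was at 0.27 and 0.14 FPKM in the 2 groups. NDRG1, a stress-responsive gene, went from 25.1, 25.7 and 26.3 FPKM to 135, 153 and 149 FPKM.

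The interaction was negative for 13 and positive for 6 of the 35 genes of the list. The most negative was that of CHRNA2 (-3.39), which was not tested under JQ-1 alone. Among the 28 members tested under JQ-1, the largest weakening was that of CENPN, a centromere protein gene (1.26 under JQ-1 and 3.66 without it). It was followed by PMEPA1, which limits TGF-beta signaling (1.29 and 3.19), and EAF2, an elongation factor partner (2.08 and 3.81). STEAP1 and STEAP2, which encode metalloreductases, showed the reverse. Their log2 fold changes were 1.73 and 1.77 under JQ-1 and 0.38 and -0.18 without it, and the last of these was not called. Their JQ1 levels were below those with vehicle. Mean levels of STEAP1 were 133 FPKM with vehicle, 174 with DHT, 38.4 with JQ1 and 130 with DHT-JQ1. For STEAP2 they were 189, 167, 72.6 and 250 FPKM. The 7 members that were not tested had few reads under JQ-1. ORM1 reached 14.1 to 18.7 FPKM with DHT but 0.143 to 0.644 FPKM with DHT-JQ1, and STEAP4 reached 8.68 to 9.22 FPKM and 0.681 to 1.02 FPKM. HPGD reached 6.33 to 7.32 FPKM with DHT, and was at 0.102 to 0.192 FPKM with JQ1 and 2.28 to 2.81 FPKM with DHT-JQ1. GNMT reached 6.64 to 9.14 FPKM with DHT, and was at 1.52 to 1.64 FPKM with JQ1 and 4.62 to 5.8 FPKM with DHT-JQ1. ADAM7, TRPM8 and CHRNA2 were below 0.6 FPKM with DHT-JQ1.

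**Figure D4:**
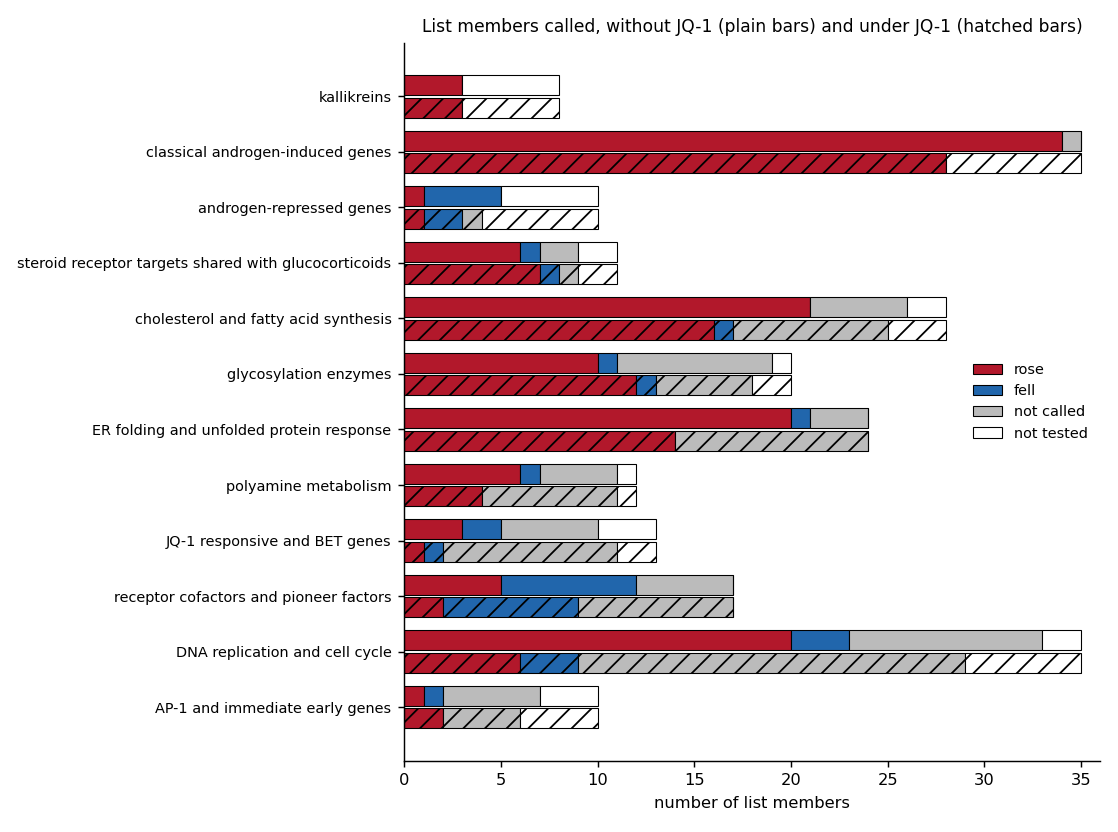
Number of members that rose, fell, were not called or were not tested in each of the 12 gene lists, for DHT without JQ-1 (plain bars) and under JQ-1 (hatched bars). In the classical androgen-induced list 28 members rose under JQ-1 and 7 were not tested, and in the cell cycle list 6 rose under JQ-1 compared with 20 without it.

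Genes repressed by androgens were mostly low under JQ-1. Of the 10 in the list, 4 were tested under JQ-1: 1 rose, OPRK1 and NOV fell and DDC was not called. Over all tested genes 10.8% rose and 9.41% fell. Without JQ-1, 4 of 5 tested members fell and 1, UGT2B28, rose, against 17% falling and 18.3% rising over all tested genes. OPRK1, an opioid receptor gene, went from 1.81 to 2.16 FPKM to 0.473 to 0.555 FPKM, and NOV, a matricellular protein gene, from 3.56 to 3.79 FPKM to 1.75 to 2.24 FPKM. The count call of NOV was lost without DHT-JQ1 replicate 2 or JQ1 replicate 1 (log2 fold changes of -0.91 and -0.83), and both falling calls were lost with DESeq2. No member of the list fell without JQ1 replicate 1, or with at least 10 counts required in every library. The 6 members that were not tested under JQ-1 had too few reads there for both measures. They are 5 UGT2B genes, whose near-identical sequences make their reads uncertain, and MET, which stayed below 0.1 FPKM in all JQ-1 libraries. UGT2B11 was at 0.998 to 1.28 FPKM with JQ1 and 3.52 to 4.19 FPKM with DHT-JQ1, and UGT2B28 at 0.304 to 0.428 and 1.31 to 1.58 FPKM. UGT2B15, UGT2B17 and UGT2B10 reached at most 0.0760, 0.264 and 0.136 FPKM in these groups.

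A further list held genes that answer both androgens and glucocorticoids. Of 11 genes 9 were tested, 7 rose, TSC22D3 fell and DUSP1 was not called, and over all tested genes 10.8% rose. Of the 7 that were at 1 FPKM or more in all 6 libraries, 5 rose. SGK1 and CEBPD lay below 1 FPKM with JQ1 and were tested through their levels with DHT-JQ1. NR3C1, the gene of the glucocorticoid receptor itself, was at 0.00630 to 0.0430 FPKM with DHT-JQ1. ZBTB16, a zinc finger repressor, went from 4.96, 5.40 and 5.12 FPKM to 44.4, 43.8 and 41.5 FPKM, above the 24.7 to 27.1 FPKM seen with DHT alone. ERRFI1, an inhibitor of EGF receptor signaling, went from 8.37 to 8.86 FPKM to 37.2 to 38.2 FPKM, and PER1, a clock gene, from 4.0 to 4.22 FPKM to 15.9 to 16.9 FPKM. TSC22D3, which is known as a glucocorticoid-induced gene, fell with and without JQ-1 (log2 fold changes of -1.09 and -2.03).

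Genes of cholesterol and fatty acid synthesis, which androgens are known to raise in prostate cells, rose in 16 of 25 tested cases of 28 under JQ-1, while SREBF1 fell and 8 were not called. Over all tested genes 10.8% rose. Without JQ-1, 21 of 26 members rose, against 18.3% of all tested genes. Their median log2 fold change was 0.48. FDFT1, squalene synthase, went from 65.4, 62.5 and 66.2 FPKM to 316, 324 and 318 FPKM. It reached a higher level than with DHT alone, where it was at 119 to 126 FPKM, and the interaction was called (1.3). FASN, fatty acid synthase, rose from 159 to 165 FPKM to 505 to 509 FPKM under JQ-1 and from 162 to 170 FPKM to 486 to 496 FPKM without it. The interaction of FASN was 0.09 (SE 0.04) and was not called.

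SREBF1, the factor that drives fatty acid synthesis genes, was one of the genes with opposite directions. It went from a mean of 185 FPKM with JQ1 to 141 FPKM with DHT-JQ1 (log2 fold change -0.38), and from 87.6 to 103 FPKM without JQ-1 (0.23). SCD and ACLY, which rose with DHT alone, had log2 fold changes of -0.12 and 0.12 under JQ-1 and were not called there. For both, the interaction was called as weaker (-0.43 and -0.59).

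Among 12 genes of polyamine metabolism, 4 of 11 tested rose under JQ-1 and 7 were not called, against 10.8% rising over all tested genes. Without JQ-1, 6 of 11 rose, against 18.3% of all tested genes. ODC1, the first enzyme of polyamine synthesis, went from 329, 334 and 334 FPKM to 1095, 1138 and 1122 FPKM. SAT1, which acetylates polyamines for export, went from 41.1, 41.8 and 37.7 FPKM to 423, 450 and 426 FPKM, a gain of 392 FPKM against 72.2 FPKM without JQ-1 (interaction 1.09, SE 0.10). SMS, spermine synthase, had the reverse interaction. It went from 67.5 to 68.8 FPKM to 181 to 190 FPKM under JQ-1 but from 84.7 to 95.9 FPKM to 743 to 794 FPKM without it (interaction -1.63, SE 0.06). AMD1, which supplies the propylamine donor, went from 22.1 to 24.0 FPKM to 56.4 to 58.3 FPKM. SRM, spermidine synthase, rose with DHT alone (1.07) and was not called under JQ-1 (0.16).

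Glycosylation enzymes rose in 12 of 18 tested cases of 20, against 10.8% of all tested genes, and in 11 of the 16 that were at 1 FPKM or more in all 6 libraries. Without JQ-1, 10 of 19 rose, against 18.3% of all tested genes. UAP1 and PGM3, both in the pathway to UDP-N-acetylglucosamine, went from 25.7 to 27.9 FPKM to 136 to 144 FPKM and from 9.11 to 9.76 FPKM to 46.3 to 47.1 FPKM. Both folds were larger than without JQ-1 (interactions 0.75 and 0.81). For PGM3 the measures differed in size, with a log2 fold change under JQ-1 of 2.20 by FPKM and 1.11 by counts. Without JQ-1 PGM3 was not called (0.28 by counts, adjusted p = 0.125 by edgeR). MAN1A1, a Golgi mannosidase gene, was the member that fell, from 2.74 to 2.89 FPKM to 0.422 to 0.557 FPKM. With any JQ1 library left out it was not tested, since fewer than 3 libraries then reached 1 FPKM.

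Genes of protein folding in the endoplasmic reticulum rose in 14 of 24 tested cases and none fell, compared with 20 that rose without JQ-1. The shares of all tested genes that rose were 10.8% and 18.3%. Their changes were small, with a median log2 fold change of 0.31 under JQ-1 and 0.72 without it, and the interaction was weaker for 12 of 24 and stronger for none. PDIA5, a disulfide isomerase gene, went from 12.8 to 13.1 FPKM to 37.4 to 39.9 FPKM, and ERN1, a sensor of unfolded protein, from 5.66 to 6.41 FPKM to 14.7 to 15.2 FPKM. DNAJB9 and HERPUD1, both targets of the unfolded protein response, went from 6.07 to 6.49 FPKM to 12.8 to 15.3 FPKM and from 22.5 to 24.7 FPKM to 42.6 to 46.6 FPKM.

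Genes of DNA replication and cell cycle had a smaller response under JQ-1 by the interaction, which was negative for 13 of 33, against 6.29% of all tested genes, and positive for none. Of 35 genes 29 were tested under JQ-1, 6 rose, 3 fell and 20 were not called, against 10.8% rising and 9.41% falling over all tested genes. The median log2 fold change was 0.02, against -0.07 over all tested genes. Without JQ-1, 20 of 33 rose, against 18.3% of all tested genes, and the median was 0.84. The 3 log2 fold changes of the replicative helicase genes MCM2, MCM4 and MCM7 were -0.36, -0.01 and 0.15 under JQ-1 and 1.03, 1.19 and 1.21 without it. PCNA, the sliding clamp of replication, was at mean levels of 40.4 FPKM with JQ1 and 39.6 FPKM with DHT-JQ1, while DHT alone took it from 34.8 to 72.8 FPKM.

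Some members still rose. CDK1, the mitotic kinase, went from 36.1 to 39.2 FPKM to 55.9 to 61.2 FPKM, CDC6, a replication licensing factor, from 2.45 to 3.17 FPKM to 4.4 to 4.54 FPKM, and CDK2 from 5.73 to 6.47 FPKM to 9.29 to 10.3 FPKM. With DESeq2 the calls of CDC6 and CDK2 were lost and 3 members of the list rose, and that of CDK2 was also lost without DHT-JQ1 replicate 1 (count log2 fold change 0.75). CCNE2, the cyclin E2 gene, fell from 7.25 to 7.65 FPKM to 3.43 to 3.67 FPKM, and its exons overlap over 1629 bases with INTS8, whose FPKM went from 20.9 to 16. CDKN1A and CDKN1B, which encode the inhibitors p21 and p27, fell with log2 fold changes of -0.49 and -0.46.

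**Figure D5:**
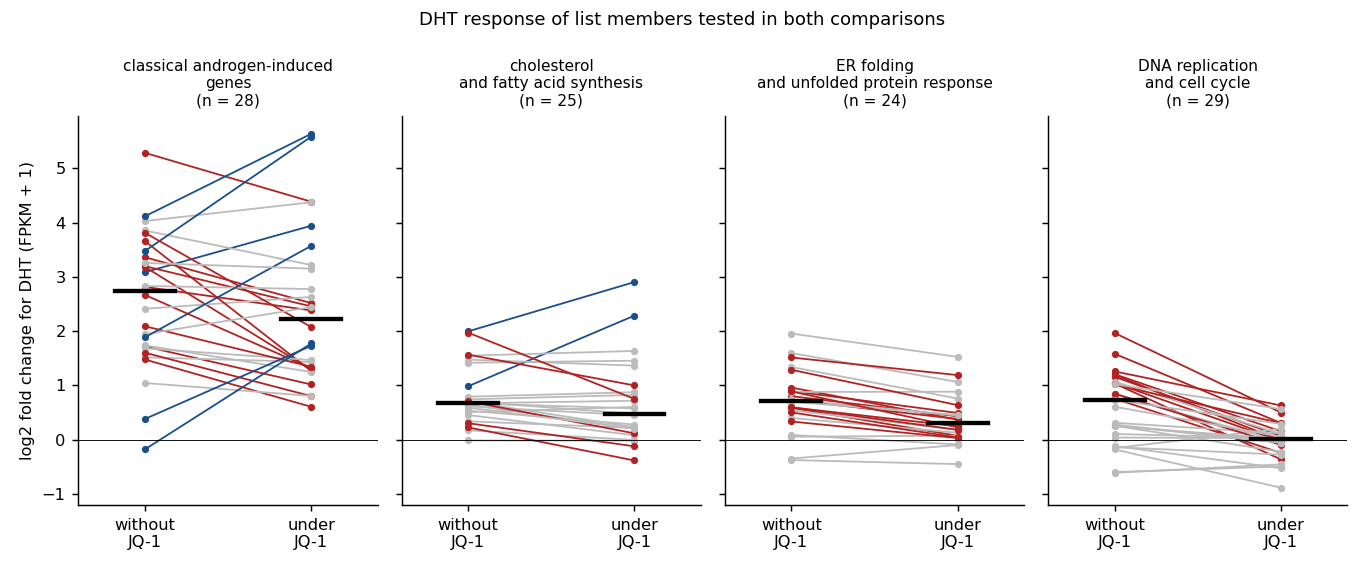
Log2 fold change for DHT without and under JQ-1 for the members of 4 gene lists that were tested in both comparisons. Lines join the 2 values of a gene and are red where the interaction was called as more negative under JQ-1, blue where more positive and gray otherwise; black bars are medians, which went from 2.74 to 2.23 for the 28 androgen-induced genes and from 0.73 to 0.02 for the 29 cell cycle genes.

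Among receptor cofactors and pioneer factors, 2 of 17 rose, 7 fell and 8 were not called, against 10.8% rising and 9.41% falling over all tested genes. Without JQ-1, 5 of 17 rose and 7 fell, against 18.3% rising and 17% falling over all tested genes. The median log2 fold change under JQ-1 was -0.07 by FPKM and 0.01 by counts. GRHL2, an epithelial pioneer factor, went from 14.4 to 15 FPKM to 44.4 to 48.0 FPKM. GATA2, a zinc finger pioneer factor, fell from 79.1, 84.4 and 86.7 FPKM to 26.5, 28.7 and 29.8 FPKM, and HOXB13 fell from 105, 110 and 109 FPKM to 54.6, 58.8 and 61.7 FPKM. FOXA1 had a log2 fold change of 0.03 and was not called. The number of falling members was 4 when DHT-JQ1 replicate 2 or JQ1 replicate 2 was left out or when DESeq2 was used.

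Among genes known to answer JQ-1 itself, of 11 tested members 1 rose, 1 fell and 9 were not called, and over all tested genes 20.2% were called. Without JQ-1, 3 of 10 rose and 2 fell, against 18.3% rising and 17% falling over all tested genes. HEXIM1, a standard marker of BET inhibition, was at a mean of 86.9 FPKM with JQ1 and 77.2 FPKM with DHT-JQ1, compared with 13.5 and 12.3 FPKM in the vehicle and DHT groups. HIST2H2BE, a histone gene, rose from 320, 330 and 332 FPKM to 397, 427 and 431 FPKM, and MYC was the member that fell. The BET genes BRD2 and BRD3 had log2 fold changes of 0.23 and 0.16 and were not called. Among AP-1 and immediate early genes, 2 of 6 tested members rose, against 10.8% of all tested genes. FOSL2 went from 10.9, 11 and 11.6 FPKM to 21.2, 21.8 and 22.1 FPKM, and ATF3 from 12.3 to 13.0 FPKM to 15.7 to 17.9 FPKM, whose count call was lost without DHT-JQ1 replicate 1 or JQ1 replicate 1 (log2 fold changes of 0.38 and 0.39) and with DESeq2.

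Cells given enzalutamide with JQ-1 share the JQ1 libraries as their control, so the values are set side by side only. KLK3 was at 44.9 to 46.6 FPKM with enzalutamide and JQ-1, C1orf116 at 30.9 to 33.0 FPKM and KLK4 at 38.6 to 41.9 FPKM. NCAPD3 was at 18.8 to 19.6 FPKM, FKBP5 at 29.3 to 29.9 FPKM and SAT1 at 81.0 to 86.1 FPKM. SPDEF was at 3.49 to 4.07 FPKM and SGK1 at 0.387 to 0.477 FPKM, within or near the range of the JQ1 libraries, whereas both rose with DHT-JQ1.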

How the data were processed

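RNA-seq libraries of MR49F cells in charcoal-stripped serum were grouped by their labels, 3 libraries per group. The authors aligned the reads of strand-specific poly(A) libraries to GRCh37 (hg19) with TopHat2 2.0.9, and deposited read counts per RefSeq gene symbol from HTSeq, which were not normalized, and FPKM for each transcript from Cufflinks 2.1.1. The FPKM were added up here by gene symbol. Each count file holds 23710 symbols. Rows of reads with no feature or an ambiguous one were left out; these were 92.3% to 93.2% of the reads listed in the 6 libraries. Whether the counting used strand is not given in the sources used here. Among genes of at least 20 FPKM, the median count per FPKM and kilobase was 0.899 for 2305 genes without exons on the opposite strand, 0.825 for 601 with such exons and a weaker partner, and 1.95 for 6 with a stronger partner. For this reason a gene had to pass in both measures.

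The count test was that of edgeR 4.0.16 in R 4.3.3 (glmQLFit and glmQLFTest, TMM, filterByExpr with a minimum count of 10 and total of 15). FPKM were tested with limma 3.58.1 (trend) on log2(FPKM + 1), and a gene needed 1 FPKM or more in 3 libraries. Only the groups compared entered a fit, and p-values were adjusted over all genes of the fit by Benjamini-Hochberg. The scripts were first tested on simulated data. For its JQ-1 conditions the study used a 2-group test on variance-stabilized counts, and limma on counts transformed in this way with DESeq2 1.42.0 was an alternative. The other alternatives were no filter, at least 10 counts in every library, DESeq2 size factors, the DESeq2 Wald test, all 6 groups of the serum in 1 fit, a replicate block, a pseudocount of 0.1, FPKM rescaled to the same sum, a 1.5-fold minimum, and each library left out.

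Named genes were 9 chosen androgen response and BET genes, the 10 rising and 10 falling genes with the largest FPKM fold change among called genes whose groups did not overlap (at least 2 FPKM and 20 reads in the higher group), the 5 largest interactions in each direction, and up to 4 called members of each of 12 lists. The comparison, lists and genes were chosen with earlier results of these data known. Some of these genes are not reported here. Other members of the lists were named after their values were seen. Gene positions are from GENCODE lifted to GRCh37, which is not the annotation used for counting, and 4 named genes had no match by symbol. Figures were drawn with matplotlib 3.10.9.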

Additional observations from a re-analysis of the deposited data

Results flagged for a closer look

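The effect of DHT differed with and without JQ-1, by the interaction in both measures, for 37 of 60 named genes, with 21 more positive and 16 more negative under JQ-1. Groups of 3 libraries are too small to be searched for single outlying values. The values are interactions on the log2 FPKM scale, and several genes were named for the size of this value, for which it is a description.

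The response was more negative under JQ-1, by a log2 value of -3.67 for ST6GALNAC1, -3.39 for CHRNA2, -3.15 for NPPC, -3.10 for SPOCK1, -2.68 for CRISP3 and -1.63 for SMS. Next came -1.47 for CDC6, -1.14 for MYC, -0.90 for FKBP5, -0.74 for NDRG1, -0.74 for PITX1 and -0.63 for CDK1. It was -0.63 for GATA2, -0.43 for TMPRSS2, -0.33 for ERN1 and -0.27 for FOLH1.

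It was more positive under JQ-1, by a log2 value of 0.43 for HIST2H2BE, 0.48 for GRHL2, 0.68 for ST3GAL1, 0.75 for UAP1, 0.81 for PGM3 and 0.83 for ZBTB16. Further values were 1.09 for SAT1, 1.20 for FOSL2 and 1.22 for CAMK2N1. Then came 1.3 for FDFT1, 1.52 for NCAPD3, 1.69 for SPDEF, 1.84 for OPRK1, 2.02 for LRRN1 and 2.11 for C1orf116. The largest were 2.19 for KLK3, 2.38 for GOLIM4, 2.54 for PKIB, 2.63 for KLK4, 2.83 for C11orf92 and 2.96 for SERPINI1.

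Some count interactions were lost when 1 of the 12 libraries was left out. This held for 8 of the libraries for CAMK2N1 and GRHL2, 7 for TMPRSS2 and OPRK1 and 5 for FOLH1. It held for 3 libraries for CDK1, 2 for ERN1 and 1 for LRRN1 and ST6GALNAC1. With the DESeq2 Wald test those of TMPRSS2, CAMK2N1, FOLH1, GRHL2, OPRK1, CDK1 and ERN1 were lost as well. C11orf92 and HIST2H2BE had no match by symbol in the annotation used for overlaps.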

How the results depend on the processing

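The number of genes changed by DHT under JQ-1 depended most on the count test and on a minimum fold. With the DESeq2 Wald test 1340 genes were called by counts and 1231 by both measures, and the interaction was called for 726. With at least a 1.5-fold change, 1197 were called by counts, 960 by FPKM and 707 by both, 1729 without JQ-1 and 563 for the interaction. The cause was not tested, other than that a minimum fold leaves fewer genes by its construction. Leaving out 1 library at a time gave 1985 to 2189 genes by counts, 5210 to 5830 by FPKM, 1673 to 1855 by both, 2976 to 3438 without JQ-1 and 979 to 1276 for the interaction. The shares of genes that also rose or fell under JQ-1 were then 35.2% to 43.4% and 29.2% to 41.4%. The other alternatives kept each count within 1.5 times its value.

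The FPKM interactions of KLK2 and MAN1A1 changed sign with log2(FPKM + 0.1), to 0.19 and 0.24, and the cause was not tested. No count or FPKM fold change of a named gene under JQ-1 changed sign in any alternative.

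The labels do not say whether the replicate numbers pair the samples. Deviations of same-numbered DHT-JQ1 and JQ1 libraries had correlations of 0.0445, 0.011 and 0.013 in counts and -0.17, 0.03 and 0.14 in FPKM. With 3 libraries per group these values cannot exclude pairing. With a replicate block, 2508 genes were called by counts, 6573 by FPKM and 2187 by both, 3530 without JQ-1 and 1342 for the interaction, with shares of 42.9% and 39.6%. The number of reads on genes limited what could be called for genes with few reads.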
